A study of Homo sapiens with 12 samples.

Results

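ADAM17, ADAM9 and ADAM15 are 3 membrane-anchored proteases of the ADAM family, MMP14 is a membrane-bound matrix metalloproteinase and TIMP1 is a secreted inhibitor of metalloproteinases. They are 5 of the 770 genes counted, of which 740 are endogenous targets and 30 are housekeeping genes. The 5 genes were chosen by name with the group means and p-values of these same tables already known, so their values are a description and support no claim that they differ from other genes. RNA came from HCT-116, a line of human colorectal carcinoma cells long kept in culture, in 12 samples that form 4 groups of 3: cells given heteronemin for 24 h, cells given tetrac for 24 h, cells given both (heteronemin+tetrac) for 24 h, and control. Heteronemin is a terpenoid made by marine sponges, and tetrac is a derivative of thyroid hormone that binds the hormone's site on an integrin at the cell surface. The sources used here give no doses and no vehicle for the control, and do not say whether the 3 samples of a group were separate cultures. All groups are 1 cell line on plastic, so stromal and blood cells that exchange proteases with a tumour are lacking from the model.

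ADAM sheddases cut the outer part off membrane proteins close to the cell surface. ADAM17 releases tumour necrosis factor and several ligands of the EGF receptor, among them amphiregulin, and so stands upstream of that receptor in epithelial and colon cancer cells. MMP14 degrades collagen around the cell and, with the inhibitor TIMP2, activates the secreted protease MMP2. TIMP1 blocks most secreted matrix metalloproteinases but inhibits MMP14 poorly. The counts are of transcripts, so neither protease activity nor shedding was measured.

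Each value below is the authors' group mean of normalized NanoString counts, in which fluorescent barcodes on hybridised probes are counted one by one. The lowest value in the tables is 33, taken as their floor, and all 5 genes lay above it in every group. Values of single samples were not analysed here, so no standard deviation can be given and whether samples of 2 groups overlap is not known. The raw depth is unknown. The sum of the means over the panel was 280484 with heteronemin, 306898 with tetrac, 297671 with heteronemin+tetrac and 333810 in control. Of 8 epithelial markers measured, 7 were above the floor in control, with EPCAM at 1814 and CDH1 at 509, while CEACAM5 was at the floor. Markers of other cells lay at or near the floor in control: 3 of 4 endothelial, 2 of 2 leukocyte and 5 of 7 fibroblast genes were listed at 33. The summed fibroblast markers stood at 471 with heteronemin, 332 with tetrac, 392 with heteronemin+tetrac and 265 in control. Endothelial sums were 183, 155, 158 and 132 in the same order, and leukocyte sums 88.4, 81.9, 85.2 and 66. All 3 sums were thus above control in each treated group, and most of these genes were at the floor in control. The part of these genes in the results was not tested.

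ADAM17 was the only one of the 5 genes with a higher mean under heteronemin than in control, and it was higher still under heteronemin+tetrac. ADAM17 had a mean of 571 with heteronemin, 431 with tetrac, 672 with heteronemin+tetrac and 434 in control. The 2 groups given heteronemin thus held the 2 highest means, and the tetrac mean lay within 1% of control, at -0.754%. Against control, ADAM17 was 1.32-fold higher with heteronemin and 1.55-fold higher with heteronemin+tetrac (log2 ratios of 0.40 and 0.63). Its p was printed as 0, which stands for any p under 0.005, for heteronemin in the authors' deposited table. For heteronemin+tetrac it was 0.01, and for tetrac 0.89, in the authors' deposited table. In RNA from a whole culture, a change in transcript per cell and a change in the share of cells that carry it cannot be told apart.

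ADAM9 and ADAM15, which carry the same protease and disintegrin modules as ADAM17, had lower means in all 3 treated groups. ADAM9 had a mean of 558 with heteronemin, 654 with tetrac, 650 with heteronemin+tetrac and 780 in control. It was lowest with heteronemin, 1.40-fold below control, and the tetrac and heteronemin+tetrac means were close to each other. The p for ADAM9 was printed as 0 for heteronemin, 0.28 for tetrac and 0.2 for heteronemin+tetrac in the authors' deposited table.

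ADAM15, whose disintegrin domain binds integrins, had a mean of 430 with heteronemin, 536 with tetrac, 473 with heteronemin+tetrac and 579 in control. The order of the 4 groups was that of ADAM9, but ADAM15 did not pass in any comparison. Its p was 0.1 for heteronemin, 0.54 for tetrac and 0.1 for heteronemin+tetrac in the authors' deposited table. With heteronemin, the log2 ratio of ADAM15 over control was -0.43 and that of ADAM9 was -0.48, a gap of 0.05 between a gene that passed and one that did not.

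MMP14, the collagen-degrading protease of the cell surface, had a mean of 82.4 with heteronemin, 113 with tetrac, 98.6 with heteronemin+tetrac and 125 in control. It was 1.52-fold lower with heteronemin and 1.27-fold lower with heteronemin+tetrac, and its log2 ratio with tetrac was -0.15. The p for MMP14 was 0.03 for heteronemin, 0.41 for tetrac and 0.04 for heteronemin+tetrac in the authors' deposited table. MMP14 had the lowest counts of the 5 probes, and its heteronemin mean lay nearest to the floor of 33.

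TIMP1, the secreted inhibitor, had a mean of 930 with heteronemin, 1149 with tetrac, 1067 with heteronemin+tetrac and 1353 in control. It was 1.45-fold lower with heteronemin, and 1.27-fold lower with heteronemin+tetrac, and its log2 ratio with tetrac was -0.24. The p for TIMP1 was 0.03 for heteronemin, 0.31 for tetrac and 0.06 for heteronemin+tetrac in the authors' deposited table. The log2 ratio of MMP14 minus that of TIMP1 was -0.06 with heteronemin, 0.09 with tetrac and -0.003 with heteronemin+tetrac, differences that had no test.

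**Figure D1:**
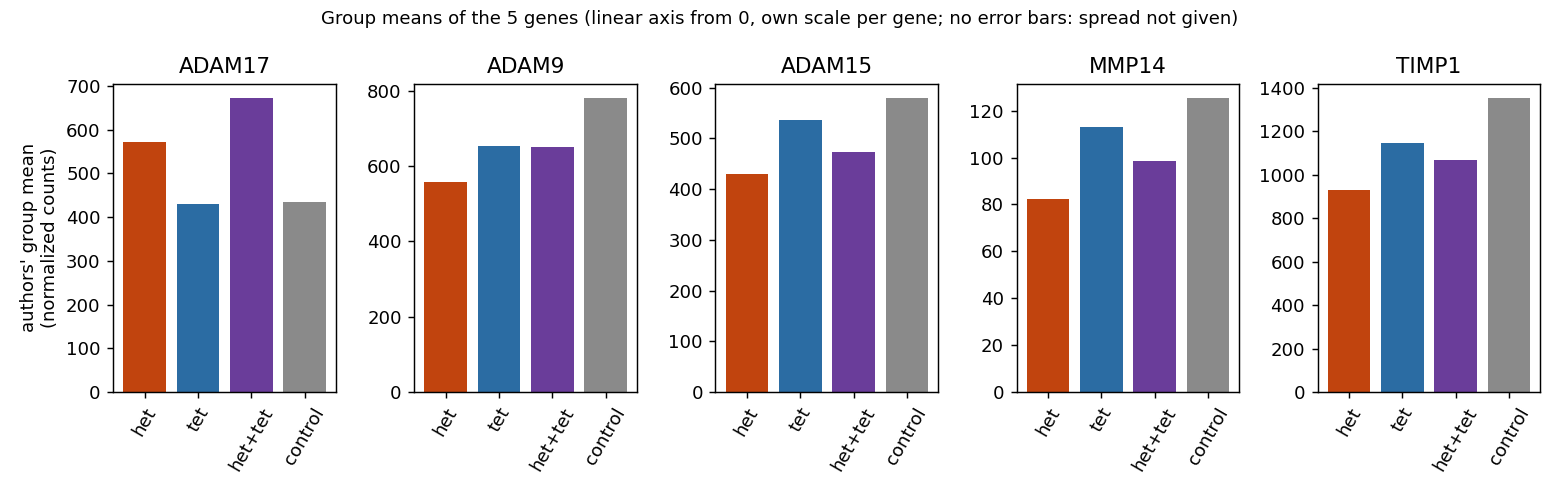
Authors' group means of normalized counts (vertical axes, linear from 0, own scale per gene) for ADAM17, ADAM9, ADAM15, MMP14 and TIMP1 with heteronemin (het), tetrac (tet), heteronemin+tetrac (het+tet) and control; bars are means and have no error bars because the spread is not given. ADAM17 is highest with heteronemin+tetrac, at 672, and the other 4 genes are lowest with heteronemin and highest in control.

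Counted together, 4 of the 5 genes passed at the authors' unadjusted p under 0.05 with heteronemin, ADAM17 higher and ADAM9, MMP14 and TIMP1 lower. Over the panel 27.1% of 704 tested genes passed, 11.2% higher and 15.9% lower. Lower calls were more frequent among well-counted genes: of the 356 genes with a mean of 100 or more over the 4 groups, a set that holds all 5, 9.27% were higher and 28.9% lower. With tetrac 0 of the 5 passed at that unadjusted p, against 1.26% of 714 tested genes and 2.25% of the well-counted ones. With heteronemin+tetrac 2 passed, ADAM17 higher and MMP14 lower, against 22.3% of 686 tested genes, 8.16% higher and 14.1% lower. Among the well-counted genes, 10.7% were higher and 25% lower. The median log2 ratio of the 5 genes was -0.48 with heteronemin, -0.15 with tetrac and -0.29 with heteronemin+tetrac. That of the 356 well-counted genes was -0.19, -0.11 and -0.15 in the same order, and that of all 770 genes 0.11, 0.02 and 0.09. Because these contrasts chose the members, nothing is read from the shares. The 3 comparisons share the control samples, so they are not independent of each other.

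When the printed p-values of a table were adjusted together by the Benjamini-Hochberg procedure, 2 of the 5 genes passed for heteronemin, ADAM17 and ADAM9, and 0 for heteronemin+tetrac, against 4 and 2 before it. Over the panel 5.82% of 704 tested genes passed that adjustment for heteronemin and 7% of 686 for heteronemin+tetrac. A p printed as 0 entered the adjustment as 0 and so passed whatever its exact value. ADAM17 and ADAM9 were both printed as 0 for heteronemin. Whether they would pass with unrounded p-values is therefore not known.

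**Figure D2:**
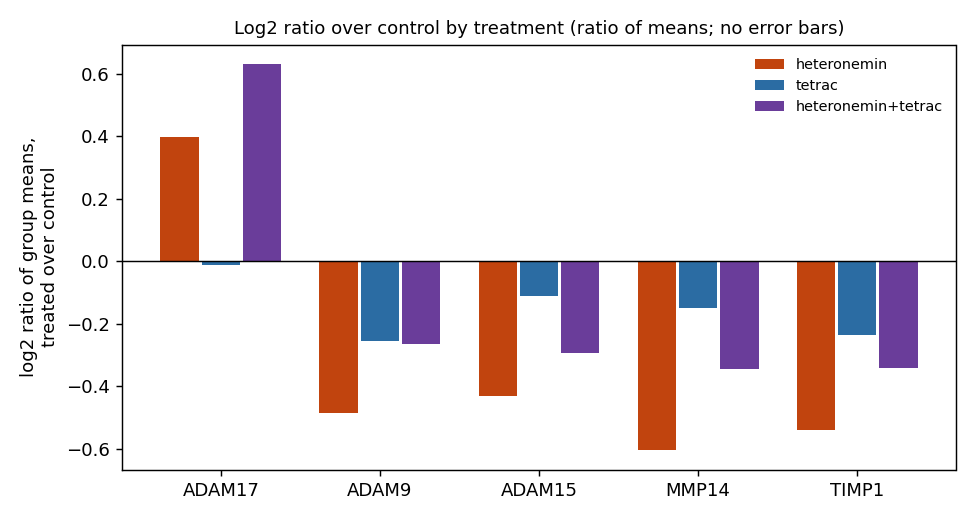
Log2 ratio of the treated over the control group mean (vertical axis) for each of the 5 genes with heteronemin, tetrac and heteronemin+tetrac; bars are ratios of means, without error bars. ADAM17 is above 0 in both groups given heteronemin (0.40 and 0.63), and the other 4 genes are below 0 in all 3 treated groups.

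Log2 ratios in these tables went with the level of a gene, so each of the 5 was set beside the 50 genes nearest to it in control mean. With heteronemin, the 50 neighbours of ADAM17 had a median log2 ratio of -0.27, and ADAM17 lay 0.67 above it, higher than 98% of them. With heteronemin+tetrac ADAM17 lay 0.78 above its neighbours' median and again above 98% of them. MMP14 lay 0.80 below its neighbours' median with heteronemin, with 2% of them lower, and 0.37 below it with heteronemin+tetrac, with 10% lower. The neighbours of MMP14 had a median of 0.20 with heteronemin, on the other side of 0 from MMP14.

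ADAM9, ADAM15 and TIMP1 lay closer to genes of like level in the 2 tables with heteronemin. With heteronemin they were 0.16, 0.15 and 0.17 below the medians of their neighbours, with 14%, 14% and 26% of the neighbours lower. Those medians were -0.33, -0.28 and -0.37, larger in size than the distances from them. With heteronemin+tetrac the distances were 0.06, 0.11 and 0.09 below, with 40%, 28% and 38% of the neighbours lower. With tetrac MMP14 lay 0.16 below its neighbours' median, with 12% of them lower, and ADAM9 and TIMP1 lay 0.12 and 0.08 below, each with 6% lower. ADAM15 lay 0.02 above its neighbours' median, higher than 62% of them, and ADAM17 0.09 above, higher than 90%. These places are descriptions, since the genes were chosen with these ratios known.

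**Figure D3:**
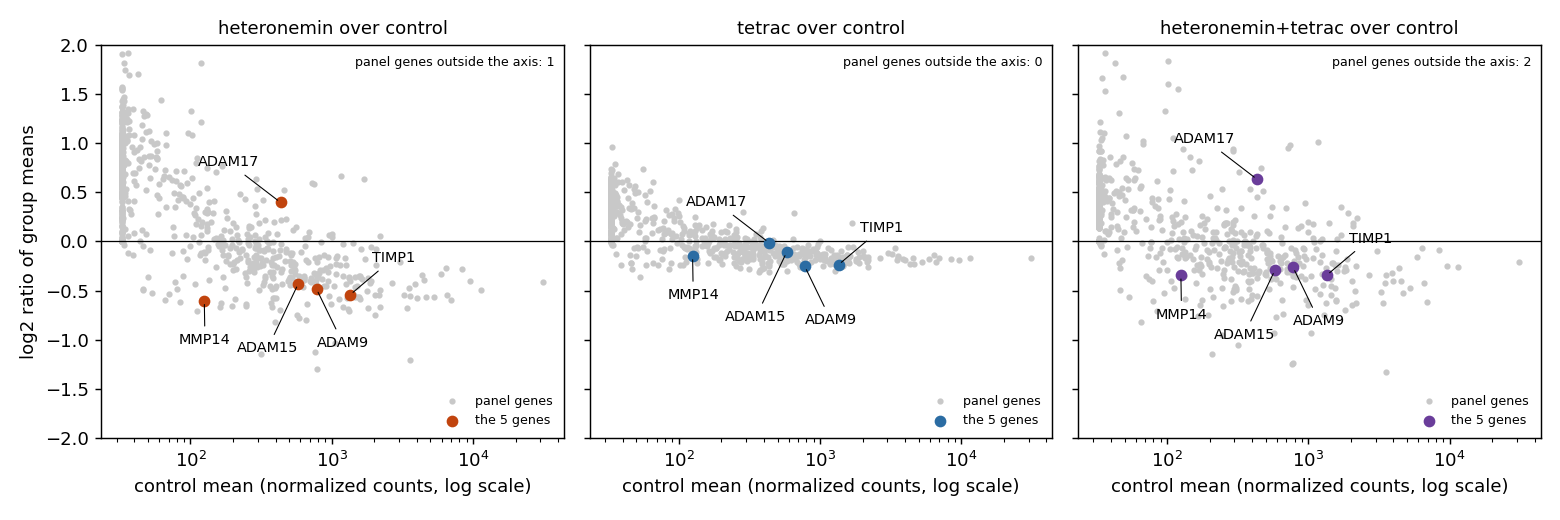
Log2 ratio of group means over control (vertical axis) against the control mean in normalized counts (horizontal log axis) for all panel genes (grey) and the 5 genes (coloured and named), for heteronemin, tetrac and heteronemin+tetrac; the corner of each panel gives the number of genes outside the axis. ADAM17 lies above and MMP14 below most genes of like control mean in the panels with heteronemin, while ADAM9, ADAM15 and TIMP1 lie among them.

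The 2 agents together were then set against each alone. All 5 genes had a higher mean with heteronemin+tetrac than with heteronemin alone, 1.18-fold for ADAM17, 1.16-fold for ADAM9, 1.10-fold for ADAM15, 1.20-fold for MMP14 and 1.15-fold for TIMP1. For ADAM17 this took the mean further from control, and for the other 4 it brought the mean back toward control. The tables hold no p for this comparison, and none of these differences was tested. Of the 103 well-counted genes that passed as lower with heteronemin, 74 (71.8%) also had a higher mean with heteronemin+tetrac than with heteronemin. Of the 33 that passed as higher, 21 (63.6%) did so. Both sets were chosen by their heteronemin values. ADAM9, MMP14 and TIMP1 are among the 103, and ADAM17 is among the 33. The share over all 356 well-counted genes is not given here. Their median log2 ratio over control was -0.19 with heteronemin and -0.15 with heteronemin+tetrac.

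Against tetrac alone, heteronemin+tetrac left ADAM17 1.56-fold higher, while the log2 ratio was -0.01 for ADAM9, -0.18 for ADAM15, -0.20 for MMP14 and -0.11 for TIMP1. Had the 2 log2 ratios added up, heteronemin+tetrac would have stood at -0.74 for ADAM9, against -0.26 as measured. For TIMP1 the measured value was -0.34 and the sum -0.78, and for MMP14 the measured value was -0.35 and the sum -0.75. ADAM15 was measured at -0.29 with a sum of -0.54, and ADAM17 at 0.63 with a sum of 0.39. The measured value was thus above the sum for each of the 5, by 0.47 for ADAM9, 0.43 for TIMP1, 0.41 for MMP14, 0.25 for ADAM15 and 0.25 for ADAM17. The size depended on the scaling: centred on the well-counted genes, the excess was 0.33 for ADAM9, 0.29 for TIMP1 and 0.26 for MMP14, and only 0.0997 for ADAM15 and 0.097 for ADAM17. Centred on the housekeeping genes, it was 0.15 for both ADAM15 and ADAM17. Of the 103 well-counted genes lower with heteronemin, 91 (88.3%) were also above their sum, by a median of 0.22 over the 103. That set was chosen by the heteronemin ratio, which is part of the sum, and it holds ADAM9, MMP14 and TIMP1. Over all 356 well-counted genes the median excess was 0.18, so an excess was not particular to the 5. The control mean enters both single ratios but the measured combination only once, so error in a gene's control mean enters this difference. The difference had no test.

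Among the 482 genes above the floor in all 4 groups, those whose 3 log2 ratios lay nearest to a member were found by Euclidean distance. For ADAM17 they were BTG1, FGF2 and PLAUR, at distances of 0.09, 0.11 and 0.12. BTG1 is an antiproliferative factor, FGF2 a fibroblast growth factor and PLAUR the urokinase receptor. For MMP14 they were EREG, PGK1 and PPP2R1A, at 0.05, 0.07 and 0.09, and TIMP1 was the next nearest at 0.11. For TIMP1 they were BMP7, ILK and EREG, at 0.009, 0.06 and 0.07. For ADAM9 they were CDKN1A, CD44 and SMAD5, at 0.06, 0.07 and 0.08, and for ADAM15 SMURF2, CNOT10 and DST, at 0.01, 0.03 and 0.04. CNOT10 is a housekeeping gene of the panel. ADAM17 was far from the other 4, at distances of 1.24 to 1.40. These distances rest on 4 group means, so many genes lie close to any pattern near the bulk of the panel.

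The other metalloproteinases and inhibitors on the panel were scarcely counted. Of 16 such genes measured, 14 were at the floor in control, and 0 passed in any of the 3 tables. Of the 5 other ADAM and ADAMTS genes, all 5 were at the floor in control, and 2 of them, ADAM8 and ADAM28, in all 4 groups. Of the 9 other matrix metalloproteinases, 8 were at the floor in control, MMP17 being the exception with a mean of 107 with heteronemin, 77.6 with tetrac, 75.8 with heteronemin+tetrac and 76.3 in control. The gelatinase MMP2, which MMP14 activates, had a mean of 56.5 with heteronemin, 43.0 with tetrac and 41.6 with heteronemin+tetrac, and was at the floor in control. The collagenase MMP1 reached 80.6 with heteronemin and was at the floor in control, with p = 0.05 in the authors' deposited table, at the threshold but not under it. TIMP2, the partner of MMP14, had a mean of 272 with heteronemin, 275 with tetrac, 256 with heteronemin+tetrac and 286 in control. Its log2 ratio with heteronemin was -0.07, against -0.54 for TIMP1, and it did not pass. ADAM10 and TIMP3, also known in shedding, are not analysed here.

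Of 3 EGF family ligands measured, 0 passed in any table, and AREG and EREG, both released by ADAM17, were far above the floor. AREG, which encodes amphiregulin, had a mean of 1753 with heteronemin, 1860 with tetrac, 2315 with heteronemin+tetrac and 2071 in control. EREG, which encodes epiregulin, had a mean of 2430 with heteronemin, 3182 with tetrac, 2803 with heteronemin+tetrac and 3562 in control. AREG was thus highest with heteronemin+tetrac and EREG in control. For AREG, p was 0.09 for heteronemin, 0.47 for tetrac and 0.32 for heteronemin+tetrac in the authors' deposited table. For EREG it was 0.05, 0.39 and 0.06 in the same order in the authors' deposited table. EGFR, the receptor of both ligands, had a mean of 385 with heteronemin, 462 with tetrac, 404 with heteronemin+tetrac and 502 in control. EGFR passed as lower with heteronemin (p = 0.04) and with heteronemin+tetrac (p = 0.01) but not with tetrac (p = 0.29) in the authors' deposited table.

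Other membrane proteins known to be shed passed in both directions. Of 22 measured, 4 were higher and 3 lower with heteronemin among 20 tested, 0 passed with tetrac, and 4 were higher and 3 lower with heteronemin+tetrac among 20 tested. The shares over all tested genes were 11.2% higher and 15.9% lower with heteronemin, and 8.16% and 14.1% with heteronemin+tetrac. SDC4, the proteoglycan syndecan-4, had a mean of 557 with heteronemin, 455 with tetrac, 675 with heteronemin+tetrac and 474 in control. TNFRSF1A, the tumour necrosis factor receptor that ADAM17 sheds, had a mean of 508 with heteronemin, 410 with tetrac, 597 with heteronemin+tetrac and 437 in control. Both had the group order of ADAM17, highest with heteronemin+tetrac and lowest with tetrac. That order was not particular to shed proteins: LAMB3 and ITGB1, of the lists below, had it too, as did BTG1 and FGF2. The share of all genes with this order is not given here. SDC4 passed in both tables with heteronemin (p = 0.01 and 0.04 in the authors' deposited table), and TNFRSF1A with heteronemin+tetrac (p = 0.01 in the authors' deposited table).

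NRP1, a co-receptor for semaphorins and VEGF, and PTPRM, a receptor phosphatase at cell contacts, were also higher in both tables with heteronemin, with log2 ratios of 1.70 and 0.74 for heteronemin and 1.81 and 0.94 for heteronemin+tetrac. The control mean of NRP1, 42.8, was near the floor. The adhesion receptor ICAM1 was higher with heteronemin, at a log2 ratio of 0.62, from a control mean of 39.9 near the floor, and lay at -0.30 beside genes of like control mean. JAG1, a Notch ligand cut by ADAM17, had the lowest log2 ratio of the 22, at -1.30 with heteronemin and -1.24 with heteronemin+tetrac. E-cadherin, CDH1, passed as lower with heteronemin (-0.45), and the hyaluronan receptor CD44 passed as lower with heteronemin+tetrac (-0.25), though it lay at 0.07 beside genes of like control mean. With heteronemin alone CD44 stood at -0.49, with p = 0.05 in the authors' deposited table, at the threshold but not under it. EPCAM and MET did not pass, at -0.37 and -0.40 with heteronemin. The median log2 ratio of the 22 genes was 0.19 with heteronemin, 0.06 with tetrac and 0.12 with heteronemin+tetrac.

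Of 6 activators and partners of these proteases that were measured, 3 were lower with heteronemin and 2 with heteronemin+tetrac, where 15.9% and 14.1% of all tested genes and 28.9% and 25% of the well-counted ones were lower. The caveolar coat protein CAV1 had a mean of 514 with heteronemin, 882 with tetrac, 549 with heteronemin+tetrac and 1048 in control. The tetraspanin TSPAN1 had log2 ratios of -0.61 and -0.71 with heteronemin and with heteronemin+tetrac. ITGA5, a chain of the fibronectin receptor, passed with heteronemin alone, at -0.27, and its partner ITGB1 did not pass, at 0.05. Whether the 2 tables differ for ITGA5 was not tested.

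Of 13 matrix genes whose products MMP14 can cut or that lie in its substrates, 4 were higher and 1 lower with heteronemin among 10 tested, and 3 were higher and 1 lower with heteronemin+tetrac among 9 tested. Over all tested genes, 11.2% were higher and 15.9% lower with heteronemin, and 8.16% and 14.1% with heteronemin+tetrac. The laminin chains LAMB3 and LAMA3, of the basement membrane, were higher in both. LAMB3 had a mean of 216 with heteronemin, 86.2 with tetrac, 363 with heteronemin+tetrac and 102 in control. LAMA3 had log2 ratios of 1.33 and 1.31 with heteronemin and with heteronemin+tetrac, from a control mean of 46.1. The collagen chain COL1A1 passed as higher with heteronemin, at 1.10, from a low control mean of 67.15. With heteronemin+tetrac it stood at 0.99 and did not pass (p = 0.07 in the authors' deposited table). The phosphoprotein SPP1 was higher in both, at 1.91 and 1.92, from a control mean of 36.4 near the floor. FN1, which encodes fibronectin, was lower in both and stood at the floor of 33 in both, against a control mean of 46.5.

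Over the 60 measured genes of these 7 lists, members left out, 15 of 50 tested genes passed with heteronemin, 8 higher and 7 lower, 0 of 51 with tetrac, and 13 of 49 with heteronemin+tetrac, 7 higher and 6 lower. The shares over all tested genes were 27.1%, 1.26% and 22.3% in the same order. The median log2 ratio of the 60 genes was 0.16 with heteronemin, 0.06 with tetrac and 0.15 with heteronemin+tetrac.

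**Figure D4:**
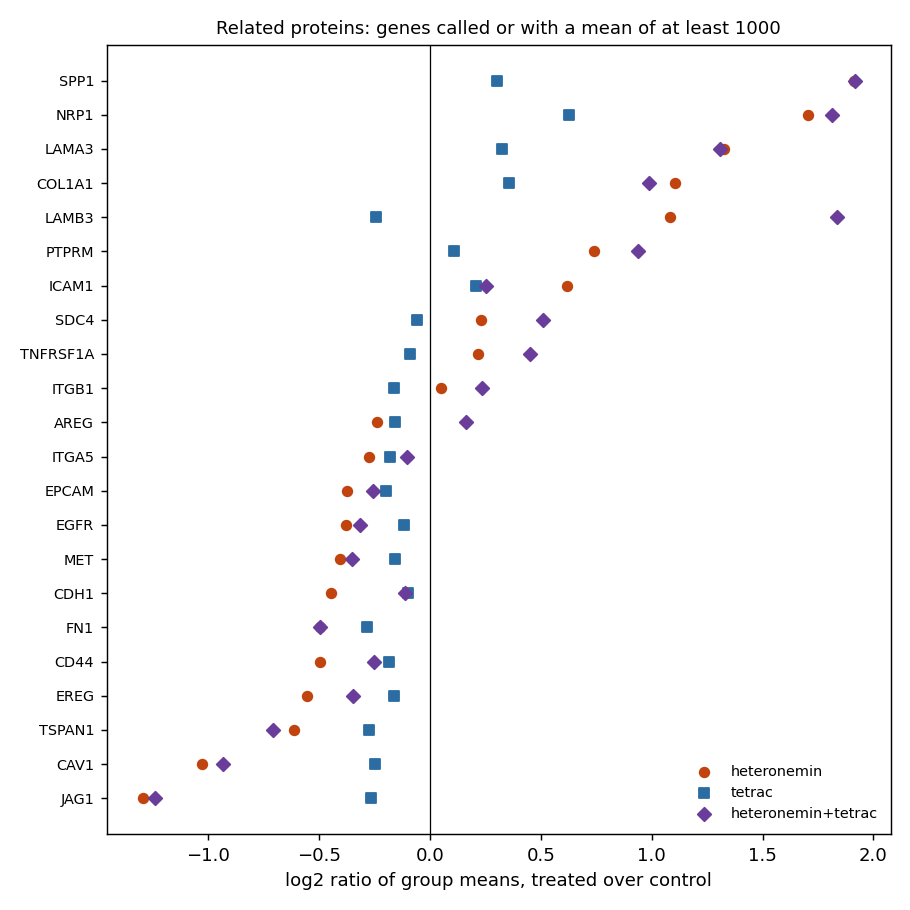
Log2 ratio of group means over control (horizontal axis) with heteronemin (circles), tetrac (squares) and heteronemin+tetrac (diamonds) for the 22 related genes that passed in any table or had a mean of 1000 or more in any group, ordered by the heteronemin ratio. Tetrac values stay between -0.29 and 0.63. The genes above 0 in both groups given heteronemin are SPP1, NRP1, LAMA3, COL1A1, LAMB3, PTPRM, ICAM1, SDC4, TNFRSF1A and ITGB1.

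The start regions of ADAM17 and of the pair MMP14 and TIMP1 are shown because the first had the opposite direction to the other 2 with heteronemin. RefSeq promoter windows of GRCh38.p14 were used, cut to the 250 bases before each gene's start, 5′ to 3′ on the gene's strand: ADAM17 at chr2:9555831-9556080, minus strand; MMP14 at chr14:22836335-22836584, plus strand; TIMP1 at chrX:47582186-47582435, plus strand. Capitals mark GC boxes, GGGCGG on either strand, the motif of Sp1.
ADAM17: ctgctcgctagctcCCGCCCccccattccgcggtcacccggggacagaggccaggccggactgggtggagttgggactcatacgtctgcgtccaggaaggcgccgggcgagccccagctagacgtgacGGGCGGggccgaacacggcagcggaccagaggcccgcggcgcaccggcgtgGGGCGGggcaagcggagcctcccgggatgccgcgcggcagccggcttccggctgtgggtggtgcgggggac
MMP14: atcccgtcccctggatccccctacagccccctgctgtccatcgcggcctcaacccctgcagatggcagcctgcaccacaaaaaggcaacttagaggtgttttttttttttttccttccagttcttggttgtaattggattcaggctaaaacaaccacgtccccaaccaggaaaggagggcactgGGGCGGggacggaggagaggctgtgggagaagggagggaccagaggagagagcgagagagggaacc
TIMP1: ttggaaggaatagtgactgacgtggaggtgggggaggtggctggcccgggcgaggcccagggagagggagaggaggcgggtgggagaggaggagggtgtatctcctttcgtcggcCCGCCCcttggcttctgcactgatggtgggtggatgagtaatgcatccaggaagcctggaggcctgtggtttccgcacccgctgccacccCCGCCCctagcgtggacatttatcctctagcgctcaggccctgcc
The ADAM17 window held 3 GC boxes, that of TIMP1 2 and that of MMP14 1, and the ADAM15 window held 6. Of all 35116 promoter windows of that length, 42.6% held at least 1. The content of G and C was 75.6% for ADAM17, 64.8% for TIMP1 and 56.8% for MMP14, against a median of 58% over all windows. It was 79.6% for ADAM15, above ADAM17, although the ADAM15 mean was below control with heteronemin. The AP-1 motif TGANTCA, which reads the same on both strands, was looked for in the same 4 windows and was found in 0 of them, while 6.57% of all windows held it. Only exact matches were counted, so variants of the motif were not looked for, and the start region of ADAM9 was not searched. A match or its lack in 250 bases is a description of the letters only.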

How the data were processed

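RNA of 12 HCT-116 samples was counted on the nCounter PanCancer Progression panel. The authors normalized the raw counts in nSolver 4.0, per the series' design text, with a positive control factor per sample and a biological normalization. The 3 tables used hold a deposited normalized signal (group means of counts per gene, with 1 control column common to the 3 tables), a deposited score (a signed fold change, equal to the quotient of the means within 0.00511) and a deposited p-value printed to 2 decimals, left blank for a gene at the floor in both groups. The sources used here do not give the test, the kind of mean or the background threshold.

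Log2 ratios of the means were computed, and a gene was called at the authors' p under 0.05. No test was added. Alternatives were the rounding of p, Benjamini-Hochberg adjustment, a fold of 1.5, re-centring, the 50 genes nearest in control mean, a pseudocount of 20 and filters on level. The members and lists were chosen with earlier results of these data known. Of 128 listed genes, 65 were measured; some other genes are not reported here. Genes named are the members, related genes called in any table or with a mean of 1000 or more, and the 3 nearest in pattern per member. MMP1, MMP2, MMP17, TIMP2, ADAM8 and ADAM28 were added after their values were seen. MMP3, MMP9 and MMP13, named at the end for their printed p with tetrac, also fall outside the naming rule. Of the 5 deposited accessions, 4 matched the RefSeq gene table without versions; ADAM9 matched by symbol. Genome builds are not named in the tables. The calling of genes was tested on simulated data with a fixed spread and changes larger than those of the 5 genes. The spread of the real samples is unknown, so that test does not show how reliable the calls here are. Python 3.11.15, numpy 2.4.6, pandas 2.3.3, scipy 1.17.1 and matplotlib 3.10.9 were used.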

Additional observations from a re-analysis of the deposited data

How the results depend on the processing

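Counts of called genes among the 5 changed under 2 settings. With Benjamini-Hochberg adjustment over the table, 2 passed with heteronemin and 0 with heteronemin+tetrac, and 5 and 6 of the related genes. A p printed as 0 passes that adjustment whatever its exact value. With a fold of at least 1.5 added to the p, 1 of the 5 passed with heteronemin (MMP14) and 1 with heteronemin+tetrac (ADAM17), and 8 related genes with heteronemin+tetrac. Limited to a mean of 100 or more, a setting added after seeing the data, 9 and 8 related genes passed with heteronemin and with heteronemin+tetrac. Re-centring, the pseudocount and the setting beside genes of like level left the authors' p as it was, so they could not change these counts. Rounding of p and the floor filter could not change the count among the 5 either. All lay above the floor and none had a printed p of 0.05. The smallest p that rounding allows gave 18 related genes with heteronemin, against 15 reported, and 13 with heteronemin+tetrac, as reported. Limited to genes above the floor in both groups, 14 and 12 related genes passed. The fold of 1.5 left 10 with heteronemin. Re-centring on well-counted genes took the median excess of heteronemin+tetrac over the sum to 0.26 from 0.41, with ADAM17 at 0.097 and ADAM15 at 0.0997, by construction, since the median shift of those genes is subtracted. Among the 5 genes, directions turned for values near 0: ADAM17 with tetrac was 0.027 when centred on housekeeping genes, 0.095 when centred on well-counted genes and 0.092 beside genes of like level, ADAM15 with tetrac was 0.016 beside genes of like level, and ADAM9 with heteronemin+tetrac over tetrac was 0.031 when centred on well-counted genes. Of the called related genes, ICAM1 with heteronemin turned to -0.30 and CD44 with heteronemin+tetrac to 0.07 beside genes of like control mean. No paired analysis was possible because the tables hold group means and no values per sample, and leaving out each replicate was not run for the same reason. A comparison between values with no test counted as unmoved under 0.1 on the log2 scale.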

Other observations

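Of the 16 other metalloproteinases and inhibitors, 9 were at the floor in control with a printed p of 0.42 for tetrac in the authors' deposited table, 7 for heteronemin+tetrac and 1 for heteronemin. Over the panel, that p stood beside 212 of the 223 genes above the floor with tetrac but not in control, 148 of 195 such genes with heteronemin+tetrac and 10 of 213 with heteronemin. By arithmetic, a test with unequal variances on 3 libraries per group gives 0.423 whenever a single treated library is above the floor and the other 5 libraries are at it, whatever its level; with a pooled variance it would be 0.374. The authors' test is not given in the sources used here, and the values of single libraries were not analysed here. MMP9, MMP3 and MMP13 are among these genes for tetrac, with means of 45.3, 46.6 and 45.2.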
